A study of Mus musculus with 6 samples.

Results

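A set of 10 genes of the insulin-like growth factor (IGF) and insulin system were followed in gastrocnemius muscle of mice that overexpress PGC-1alpha3, one form of the coactivator encoded by Ppargc1a. They were the ligand gene Igf1, the receptor genes Igf1r and Insr, the adaptor genes Irs1 and Irs2, and the binding protein genes Igfbp3, Igfbp4, Igfbp5, Igfbp6 and Igfbp7. They were taken by symbol from the table of raw gene counts, and all 10 of 10 were found among its 51911 genes. Libraries came from male HSA-PGC-1a3 transgenic mice and from male wild-type mice, and HSA stands for the human skeletal actin promoter, which is active in skeletal muscle fibres. Age and background strain are not given in the sources used here. There were 3 bulk RNA libraries of each genotype, with 26190221 to 32593108 counts in the transgenic and 25532146 to 40846872 counts in the wild-type libraries. The labels do not say how many animals stand behind a library, so p-values measure the spread between these libraries.

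IGF-1 is a secreted growth factor made by the liver and by many tissues, skeletal muscle included. It binds the IGF-1 receptor, while insulin binds the closely related insulin receptor, and both receptors pass the signal on through the adaptor proteins IRS-1 and IRS-2 to phosphatidylinositol 3-kinase. IGF binding proteins hold IGFs in blood and tissue and set how much of the ligand can reach its receptor. In muscle this system is known for its role in fibre growth and glucose uptake, and another form of the same coactivator, PGC-1alpha4, is known to raise Igf1 in mouse muscle.

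Ppargc1a, the gene of the transgene, was at 3103, 2449 and 3238 CPM in transgenic muscle, against 51.1, 52.1 and 53.5 CPM in wild-type muscle, so each library matched its label. CPM are a gene's counts relative to its library's TMM-scaled total, with TMM factors explained below.

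Of the 10 genes, 6 fell in transgenic muscle and 0 rose. Igf1 had the lowest fold change, followed by Insr, Igfbp3, Igfbp7, Igfbp6 and Igfbp4, while Igf1r, Irs1, Irs2 and Igfbp5 did not pass the test. In bulk tissue fewer cells of a type and less RNA per cell cannot be told apart. Passing means a Benjamini-Hochberg adjusted p under 0.05 over all 16593 genes tested with edgeR's quasi-likelihood test, after scaling by TMM factors (trimmed mean of M-values). All 10 genes passed the filter on low counts. In the same test 50.7% of all tested genes passed, 25.2% being lower and 25.5% higher in transgenic muscle. The median log2 fold change was -0.45 over the 10 genes and -0.016 over all tested genes, and 9 of the 10 lay below 0. At an unadjusted p under 0.05 the count was 7 lower and 0 higher in edgeR, and DESeq2 and limma-voom each called 6 lower and 0 higher after adjustment. The genotypes did not overlap in TMM-scaled CPM for 6 of the 10 genes, which are the 6 that fell. Among all tested genes the share without overlap was 59.6%, and 29.5% had the transgenic libraries below the wild-type ones. Without transgenic replicate 2, or without any 1 of the wild-type libraries, 5 of the 10 were called lower, and Igfbp6 was the gene lost. Without transgenic replicate 3 Igfbp6 was lost and Irs2 was called lower.

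**Figure D1:**
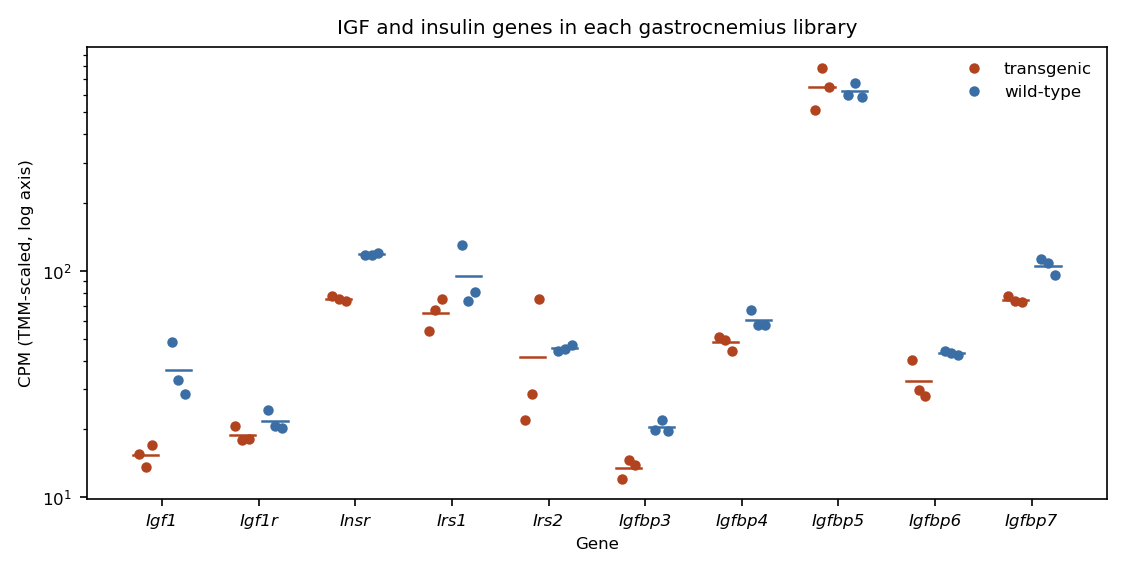
CPM of each of the 10 genes (vertical log axis) in the 3 transgenic (red, left) and 3 wild-type (blue, right) libraries, with short lines at the genotype means. The red and blue points are apart for Igf1, Insr, Igfbp3, Igfbp4, Igfbp6 and Igfbp7, and the Irs2 value of transgenic replicate 3 (75.0 CPM) stands above the rest.

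These directions depend on how libraries are scaled. TMM factors were 1.15 in each transgenic library and 0.851 to 0.885 in the wild-type libraries. Scaling by library totals put the median gene at a log2 fold change of 0.38, a shift of 0.396. Under that scaling 2 of the 10 genes were lower (Igf1 and Insr) and 1 was higher (Igfbp5), where 8.73% of all tested genes were lower and 52.3% higher. Relative to the median of all genes the 10 genes hardly moved between the scalings, with Igf1 at -1.23 and Insr at -0.63 under either. This had to be so, because a change of scaling moves all genes by about the same amount. It does not say which scaling is right. The fold changes below use TMM factors unless stated.

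**Figure D2:**
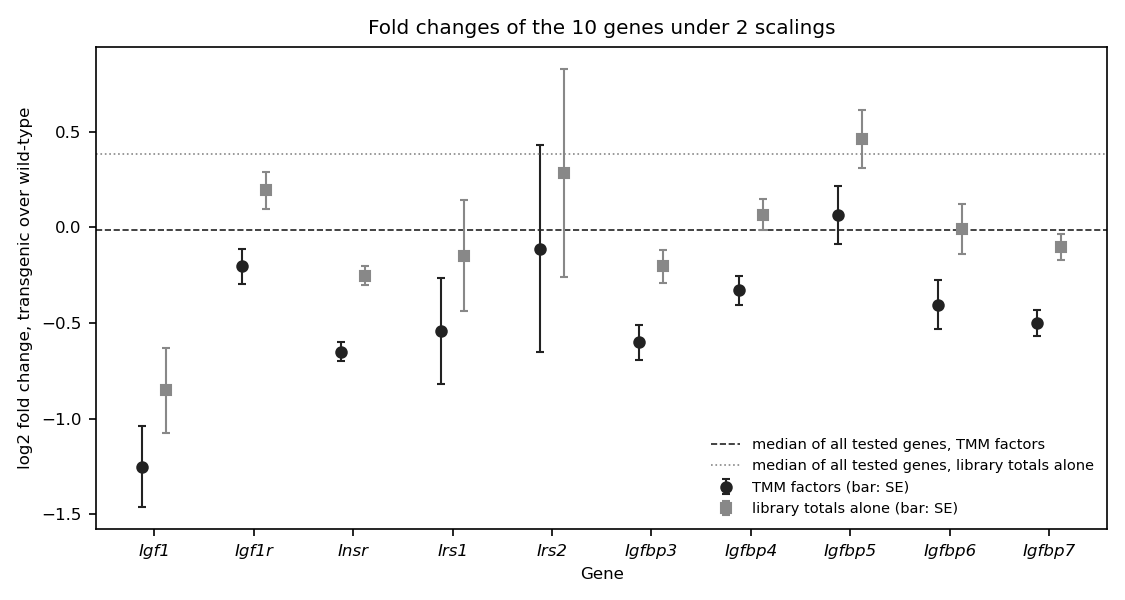
Log2 fold change, transgenic over wild-type, of each of the 10 genes with TMM factors (black circles) and with library totals alone (grey squares). Bars are standard errors and horizontal lines mark the median of all tested genes under each scaling (-0.016 and 0.38). A change of scaling moves all genes by about the same amount, so each gene must keep about the same distance from its line.

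Igf1 fell the most of the 10. It is carried on chromosome 10 (87858265 to 87937042, plus strand, GRCm38), and its exons together cover 9904 bases. Its level was 15.5, 13.6 and 17.1 CPM in the 3 transgenic libraries, against 48.3, 32.9 and 28.7 CPM in the 3 wild-type libraries. Every transgenic library lay below every wild-type library, and wild-type replicate 1 was the highest. The means were 15.4 ± 1.74 CPM in transgenic muscle and 36.6 ± 10.3 CPM in wild-type muscle (SD, n = 3 each). Igf1 had a log2 fold change of -1.25 (standard error, SE, 0.21; 95% interval -1.77 to -0.72, edgeR adjusted p = 0.00361), so that the wild-type level was 2.37 times the transgenic level. Of the 16593 tested genes, 445 had a lower log2 fold change. Igf1 passed without wild-type replicate 1 as well (-1.01, edgeR adjusted p = 7.09e-05), and with library totals alone (-0.85, edgeR adjusted p = 0.0169). In the authors' deposited table Igf1 had a log2 fold change of -1.20. The counts are per gene and do not tell the transcripts that begin at different exons of Igf1 apart.

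The window around the RefSeq start of Igf1 (250 bases before to 50 after, GRCm38.p6, chr10:87860861-87861160, plus strand) is shown because Igf1 had the lowest fold change of the 10. This start lies within the GENCODE gene, which begins upstream of it. Such a window was in the RefSeq table for 9 of the 10 genes.
Igf1: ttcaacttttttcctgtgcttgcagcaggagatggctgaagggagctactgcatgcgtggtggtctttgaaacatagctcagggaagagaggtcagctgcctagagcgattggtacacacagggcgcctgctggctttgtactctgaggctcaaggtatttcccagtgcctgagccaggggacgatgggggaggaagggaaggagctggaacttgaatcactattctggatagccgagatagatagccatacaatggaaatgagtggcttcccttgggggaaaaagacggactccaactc
Each window was searched on both strands for 5 motifs, namely CACGTG (the E-box), TGTTTTG (the core of the insulin response element), TGTTTAC (a FoxO core), TTCNNNGAA (a STAT5 core) and AAGGTCA (the half-site of the oestrogen-related receptors, which PGC-1alpha coactivates). The Igf1 window held none of these letter strings and had 52.3% G and C, close to the median of 52.7% over all 32851 windows. TTCNNNGAA was in 8.3% of all windows and in 0 of the 9 windows of these genes, TGTTTAC in 3.65% and 0 of 9, and AAGGTCA in 4.72% and 1 of 9, the Igf1r window. A string that is absent here says only that these letters are not in this window.

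The insulin receptor fell and the IGF-1 receptor did not pass. Insr (chromosome 8, 3122061 to 3279617, minus strand), which encodes the insulin receptor, was at 77.4, 74.9 and 73.6 CPM in transgenic muscle, against 118, 117 and 119 CPM in wild-type muscle. It had the smallest spread of the 10 genes relative to its level, and the genotypes lay far apart. Its log2 fold change was -0.65 (SE 0.05, edgeR adjusted p = 2.04e-06), a wild-type level 1.57 times the transgenic level, and the authors' deposited table gave -0.63. Insr still passed as lower with library totals alone, at -0.25 (edgeR adjusted p = 0.00109). Igf1r (chromosome 7, 67952827 to 68233668, plus strand) was at 20.6, 17.9 and 18.0 CPM in transgenic muscle, against 24.3, 20.7 and 20.2 CPM in wild-type muscle. Transgenic replicate 1 lay inside the wild-type range. Its log2 fold change was -0.20 (SE 0.09, 95% interval -0.41 to -0.0020, edgeR adjusted p = 0.0855), and with library totals alone it was 0.19 (edgeR adjusted p = 0.105). Leaving out wild-type replicate 1 moved Igf1r to -0.13 (edgeR adjusted p = 0.277).

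The ratio of the receptor counts within a library does not depend on scaling between libraries. Igf1r over Insr was 0.266, 0.239 and 0.245 in the transgenic libraries, against 0.206, 0.177 and 0.169 in the wild-type libraries. The genotypes did not overlap, and the mean log2 ratio differed by 0.45 (transgenic minus wild-type), with SDs of 0.082 and 0.15 within the genotypes. The exact two-sided permutation test gave p = 0.1, the smallest that 3 libraries against 3 allow. The ratio sets the receptors against each other and does not say which of them moved.

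The adaptor genes had the widest intervals of the 10. Irs1 (chromosome 1, 82233101 to 82291416, minus strand) encodes the adaptor IRS-1. It was at 54.1, 66.9 and 74.7 CPM in transgenic muscle, against 131, 73.6 and 81.0 CPM in wild-type muscle. Wild-type replicate 1 was the highest, and transgenic replicate 3 lay just above wild-type replicate 2. It had a log2 fold change of -0.54 (SE 0.28, 95% interval -1.27 to 0.19, edgeR adjusted p = 0.175), which was -0.25 without wild-type replicate 1 (edgeR adjusted p = 0.184). Irs1 shares 2822 of its 9144 exonic bases with Gm9747 on the opposite strand. The counting did not use strand, so reads in the shared bases cannot be told apart.

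Irs2 (chromosome 8, 10984681 to 11008458, minus strand) encodes IRS-2, the second adaptor of the pair. It shares 162 exonic bases with 9530052E02Rik on the opposite strand, which had 328 counts in all. Irs2 was at 22.0, 28.4 and 75.0 CPM in transgenic muscle, against 44.3, 45.0 and 46.9 CPM in wild-type muscle. The wild-type libraries were close together. Transgenic replicates 1 and 2 lay below all of them, and transgenic replicate 3 above all of them. The log2 fold change was -0.11 (SE 0.54, 95% interval -1.59 to 1.37, edgeR adjusted p = 0.886). Without transgenic replicate 3 it was -0.84 (edgeR adjusted p = 1.09e-04), and without transgenic replicate 1 it was 0.22 (edgeR adjusted p = 0.764), so the value rests on which transgenic libraries are used. The ratio of Irs2 counts to Irs1 counts within a library was 0.407, 0.425 and 1.0 in the transgenic libraries, against 0.339, 0.612 and 0.579 in the wild-type libraries, and the genotypes overlapped (exact two-sided permutation p = 0.8, where 0.1 is the smallest possible). The summed tendon markers were also apart in transgenic replicate 3, at 239 CPM, against 497 and 417 CPM in transgenic replicates 1 and 2 and 366 to 467 CPM in wild-type muscle. Their part in the Irs2 value was not tested.

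The windows around the RefSeq starts of Irs1 (GRCm38.p6, chr1:82291390-82291689, minus strand) and Irs2 (chr8:11008880-11009179, minus strand) are shown because these genes had the widest intervals and carry the same pair of motifs. Capitals mark CACGTG and TGTTTTG.
Irs1: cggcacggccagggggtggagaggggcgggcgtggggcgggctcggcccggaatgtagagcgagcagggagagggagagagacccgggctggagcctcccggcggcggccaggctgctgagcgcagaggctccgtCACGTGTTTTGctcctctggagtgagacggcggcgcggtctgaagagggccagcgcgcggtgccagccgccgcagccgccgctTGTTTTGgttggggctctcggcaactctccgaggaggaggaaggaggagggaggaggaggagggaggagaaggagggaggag
Irs2: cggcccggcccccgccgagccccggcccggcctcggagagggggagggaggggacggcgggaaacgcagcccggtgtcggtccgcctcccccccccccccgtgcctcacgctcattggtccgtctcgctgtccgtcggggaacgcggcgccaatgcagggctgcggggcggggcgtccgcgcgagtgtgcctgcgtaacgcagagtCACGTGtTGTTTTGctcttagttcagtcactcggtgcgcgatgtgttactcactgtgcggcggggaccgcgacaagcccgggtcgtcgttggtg
In Irs1 the string CACGTG begins 115 bases before the start and runs into a TGTTTTG that begins at 111 and shares 2 bases with it, and another TGTTTTG begins at 32. In Irs2 CACGTG begins 44 bases before the start and TGTTTTG at 37, with 1 base between them. The Irs2 window lies wholly upstream of the GENCODE gene, so these Irs2 distances hold for the RefSeq start only. CACGTG was in 7.15% of all windows, TGTTTTG in 6.28%, and both together in 0.408%. Among the 9 windows of these genes both strings were in these 2 and neither was in the other 7. The match is of letters only, and nothing in these data measures binding there.

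The binding protein genes fell in 4 of 5 cases. Igfbp3 encodes the main IGF carrier of the blood and is also made in tissues. Igfbp3 (chromosome 11, 7206086 to 7213923, minus strand) was at 12.1, 14.6 and 13.8 CPM in transgenic muscle, against 19.8, 22.1 and 19.6 CPM in wild-type muscle. All transgenic libraries lay below all wild-type libraries. Igfbp3 had a log2 fold change of -0.60 (SE 0.09, edgeR adjusted p = 2.26e-04), and the authors' deposited table gave -0.59.

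Igfbp7 (chromosome 5, 77349240 to 77408041, minus strand) encodes a secreted protein that binds IGFs weakly and is known from blood vessels. Its level was 77.7, 73.4 and 72.5 CPM in transgenic muscle, against 112, 108 and 95.7 CPM in wild-type muscle, again with no overlap. It had a log2 fold change of -0.50 (SE 0.07, edgeR adjusted p = 1.04e-04). Igfbp7 shares 85 exonic bases with Polr2b on the opposite strand.

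Igfbp4 encodes a binding protein that is cut by the protease PAPP-A when IGF is bound. Igfbp4 (chromosome 11, 99041244 to 99054392, plus strand) was at 50.8, 49.7 and 44.3 CPM in transgenic muscle, against 66.9, 57.4 and 57.9 CPM in wild-type muscle. The gap between the genotypes was narrower than for Igfbp3 or Igfbp7, and the log2 fold change was -0.33 (SE 0.08, edgeR adjusted p = 0.00413). Igfbp6 (chromosome 15, 102144362 to 102149511, plus strand) encodes a binding protein that prefers IGF-2. It was at 40.4, 29.9 and 28.0 CPM in transgenic muscle, against 44.4, 43.3 and 42.3 CPM in wild-type muscle, and transgenic replicate 1 lay close to the wild-type libraries. The log2 fold change was -0.40 (SE 0.13, edgeR adjusted p = 0.0304). The Igfbp6 call ended without any 1 library other than transgenic replicate 1 (edgeR adjusted p 0.0612 to 0.106). Under library totals none of these 4 binding protein genes passed, at -0.20 for Igfbp3, -0.10 for Igfbp7, 0.065 for Igfbp4 and -0.0091 for Igfbp6 (edgeR adjusted p = 0.0629, 0.201, 0.519 and 0.958).

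Igfbp5 did not pass the test under TMM scaling. Igfbp5 (chromosome 1, 72857932 to 72874884, minus strand) encodes the binding protein that is known to be abundant in skeletal muscle and regulated during myogenic differentiation. It was at 512, 789 and 648 CPM in transgenic muscle, against 600, 677 and 586 CPM in wild-type muscle. The transgenic libraries reached past both ends of the wild-type range. Its log2 fold change was 0.064 (SE 0.15, 95% interval -0.29 to 0.42, edgeR adjusted p = 0.752). Under library totals Igfbp5 passed as higher, at 0.46 (edgeR adjusted p = 0.0317), where the median of all genes was 0.38.

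Igfbp5 made up 73.9%, 82.5% and 80.3% of the counts of the 5 binding protein genes in the transgenic libraries, against 71.2%, 74.6% and 73.1% in the wild-type libraries. The genotypes overlapped in this share, since transgenic replicate 1 lay between the wild-type libraries (exact two-sided permutation p = 0.2, where 0.1 is the smallest possible). Igf1 counts came to 2.24%, 1.42% and 2.12% of the summed binding protein counts in the transgenic libraries, against 5.72%, 3.63% and 3.58% in the wild-type libraries. Here the genotypes were apart, with a log2 difference of -1.15 (exact two-sided permutation p = 0.1, the smallest possible). These are shares of counts, in which longer genes weigh more. Divided by exon length, Igfbp5 made up 42.3%, 55.9% and 52.0% in the transgenic libraries, against 39.3%, 43.2% and 41.7% in the wild-type libraries, again with overlap (log2 difference 0.27, exact two-sided permutation p = 0.2). On the same scale Igf1 came to 0.779%, 0.584% and 0.831% in the transgenic libraries, against 1.92%, 1.27% and 1.24% in the wild-type libraries, without overlap.

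Per kilobase of exon the order of the 10 genes was led by the binding proteins. In transgenic muscle the level was 108 ± 23.1 CPM per kilobase for Igfbp5, 61.7 ± 2.29 for Igfbp7, 29.5 ± 6.04 for Igfbp6 and 10.9 ± 0.786 for Igfbp4, against 103 ± 8.21, 87.1 ± 7.12, 39.0 ± 0.916 and 13.7 ± 1.21 in wild-type muscle (SD, n = 3 each). At the low end were Igf1 at 1.55 ± 0.176 and Igf1r at 1.12 ± 0.0908 CPM per kilobase in transgenic muscle, against 3.70 ± 1.04 and 1.29 ± 0.132 in wild-type muscle. The library ranges of these 6 genes did not overlap within either genotype, so their order was the same in both. In between, Irs1, Irs2, Insr and Igfbp3 lay at 4.32 to 7.14 CPM per kilobase in transgenic muscle and 6.55 to 10.4 in wild-type muscle. Within the transgenic libraries Irs2 (3.48 to 11.9) spanned the ranges of Irs1, Insr, Igfbp3 and Igfbp4. Within the wild-type libraries Irs1 (8.05 to 14.3) overlapped Insr and Igfbp4, and Irs2 overlapped Igfbp3. Exon lengths came from the merged GENCODE exons, which are long for Igf1 and Igf1r if muscle uses the shorter transcripts.

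Other genes of the pathway moved in both directions. Over 7 lists with 56 genes, 47 were tested, 20 fell and 9 rose, with a median log2 fold change of -0.30. Among all tested genes 25.2% fell and 25.5% rose. Under library totals 8 genes passed as lower and 17 as higher, with a median of 0.096 where that of all genes was 0.38. Of all tested genes 8.73% were then lower and 52.3% higher. These shares are the comparison for the counts of each pathway and marker list below.

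Among ligands, Igf2 rose. It encodes IGF-2, the fetal growth factor of the family, and was at 61.2, 83.8 and 78.2 CPM in transgenic muscle, against 20.4, 20.3 and 16.7 CPM in wild-type muscle. Every transgenic library was above every wild-type library, opposite in direction to Igf1. The log2 fold change was 1.96 (SE 0.13, edgeR adjusted p = 8.24e-06), and 2.35 with library totals alone. Igf2 shares 3596 exonic bases with Gm49394 on the same strand. Igf2r, whose product clears IGF-2, was at 124 ± 5.45 CPM in transgenic muscle and 125 ± 6.44 CPM in wild-type muscle (SD, n = 3 each; edgeR adjusted p = 0.845). The insulin genes Ins1 and Ins2 had 1 and 4 counts over the 6 libraries, and Insrr, the insulin receptor-related receptor, had 42, so none of them was tested.

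Of the other binding proteins, Igfals, which encodes the acid-labile subunit that holds IGF complexes in blood, was at 1.64, 1.13 and 1.98 CPM in transgenic muscle, against 4.64, 3.63 and 3.65 CPM in wild-type muscle. It fell by 1.31 on the log2 scale (SE 0.21, edgeR adjusted p = 4.13e-04). Igfbp1 had 2 counts and Igfbp2 had 18 over the 6 libraries, both too few to test. Their genes lie beside those of Igfbp3 and Igfbp5, with gaps of 3.54 and 5.59 kilobases and no protein-coding gene between them in RefSeq (GRCm38.p6), and members of each neighbouring pair were at very different levels. Igfbpl1 was not tested either, with 4, 4 and 12 counts in the transgenic and 0 in the wild-type libraries. Of 7 tested genes for binding protein proteases and their inhibitors 2 fell and 0 rose (edgeR; 0 rose at an unadjusted p under 0.05 too), with a median of -0.046, while under library totals 1 was lower and 2 were higher, with a median of 0.35. Htra4, a serine protease of the HtrA family, was at 0.362, 0.367 and 0.188 CPM in transgenic muscle, against 10.2, 9.04 and 7.04 CPM in wild-type muscle (log2 fold change -4.86, SE 0.24, edgeR adjusted p = 1.07e-07), and it shares 792 exonic bases with the noncoding Gm16933. In the authors' deposited table Htra4 had a log2 fold change of -3.22, nearer 0 than the value here. Timp3 fell by 0.49 (SE 0.14, edgeR adjusted p = 0.0213), a call lost under library totals and when transgenic replicate 1, transgenic replicate 3 or wild-type replicate 2 was left out, and it shares 1733 exonic bases with Syn3. Pappa, the protease that cuts IGFBP-4, was at 12.6 ± 3.38 CPM in transgenic muscle and 16.3 ± 3.32 CPM in wild-type muscle (SD, n = 3 each; edgeR adjusted p = 0.209).

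**Figure D3:**
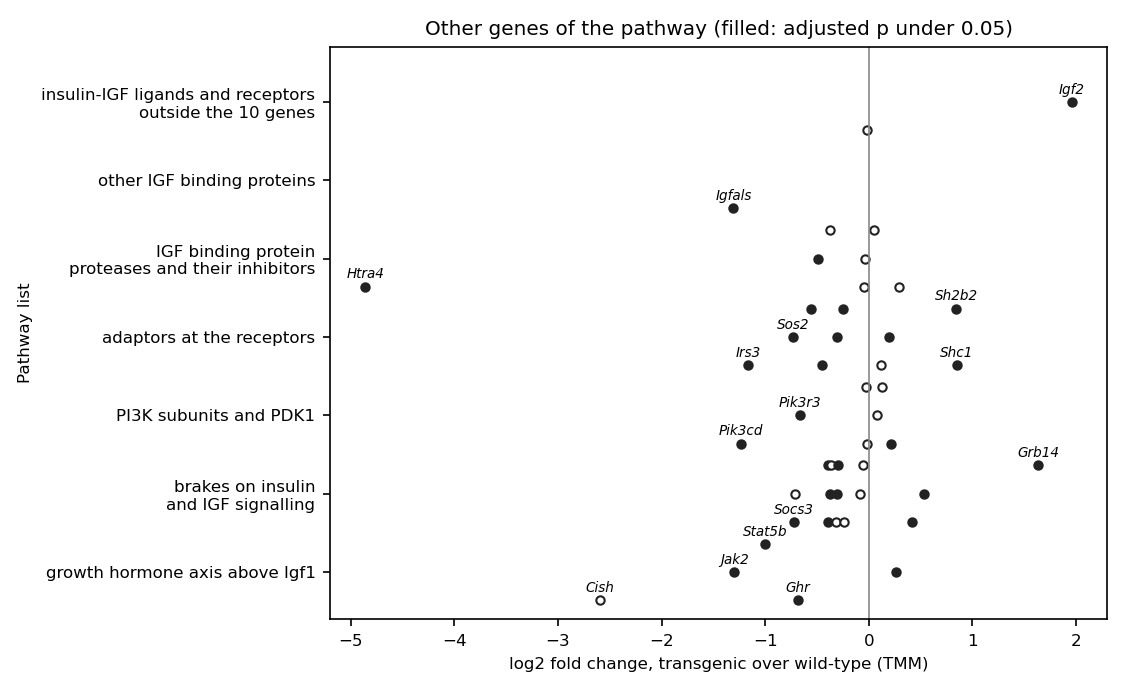
Log2 fold change, transgenic over wild-type with TMM factors, of the 47 tested genes in 7 lists of other pathway genes, with filled circles for an adjusted p under 0.05. Igf2 (1.96) and Grb14 (1.63) lie farthest to the right, and Htra4 (-4.86) farthest to the left.

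Of 10 tested adaptor genes other than Irs1 and Irs2, 6 fell and 3 rose, with a median log2 fold change of -0.28 (under library totals 1 was lower and 5 higher, median 0.12). Shc1, whose product links receptors to the Ras pathway, rose by 0.85 (SE 0.07, edgeR adjusted p = 3.95e-06). Sos2, a Ras exchange factor, had a log2 fold change of -0.73 (SE 0.06), the docking protein gene Gab1 -0.56 (SE 0.07) and the phosphatase gene Ptpn11 -0.45 (SE 0.06). Gab1 and Ptpn11 lost their calls with library totals alone, at -0.16 and -0.059. Of 7 phosphatidylinositol 3-kinase and PDK1 genes 2 fell and 1 rose, with a median of -0.014 (under library totals 2 were lower and 4 higher, median 0.38). The catalytic subunit gene Pik3cd had a log2 fold change of -1.24 (SE 0.14), the regulatory subunit gene Pik3r3 -0.66 (SE 0.10) and Pdpk1, which encodes the kinase PDK1, 0.21 (SE 0.05). The subunit genes Pik3ca and Pik3r1 were at 0.076 and -0.025 and did not pass (edgeR adjusted p = 0.308 and 0.900). Pik3r3 shares 1289 exonic bases with Gm49337 and Gab1 266 with Gm31105, so their counts are uncertain to that extent.

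Of 15 genes that restrain insulin and IGF signalling 3 rose and 6 fell, with a median of -0.30 (under library totals 3 were higher and 0 lower, median 0.092). Grb14, whose product binds and inhibits the active insulin receptor, was at 92.8, 90.6 and 80.5 CPM in transgenic muscle, against 24.0, 28.6 and 32.3 CPM in wild-type muscle. It rose by 1.63 (SE 0.10, edgeR adjusted p = 1.65e-06), or 3.11-fold, and by 2.03 with library totals alone. Asb6, a ubiquitin ligase adaptor that binds APS, rose by 0.53 (SE 0.11). The phosphatase genes Inpp5k (-0.37, SE 0.06) and Ptpn1 (-0.30, SE 0.07) fell with TMM factors, while with library totals alone they were at 0.022 and 0.096 and did not pass.

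Growth hormone acts through its receptor, the kinase JAK2 and STAT5 to raise Igf1 transcription, best known in liver. Of 5 tested genes of this axis 3 fell and 1 rose, with a median of -0.998 (under library totals also 3 lower and 1 higher, median -0.60). Jak2 was at 40.3, 35.1 and 43.8 CPM in transgenic muscle, against 112, 92.4 and 89.7 CPM in wild-type muscle (log2 fold change -1.30, SE 0.10, edgeR adjusted p = 1.04e-05). Stat5b, the STAT5 gene with the higher level per kilobase here, was at 142, 144 and 149 CPM in transgenic muscle, against 286, 307 and 275 CPM in wild-type muscle (log2 fold change -0.998, SE 0.06, edgeR adjusted p = 2.30e-07). Ghr, the growth hormone receptor gene, was at 118, 119 and 123 CPM in transgenic muscle, against 207, 193 and 176 CPM in wild-type muscle (log2 fold change -0.68, SE 0.06, edgeR adjusted p = 7.35e-06). These 3 genes did not overlap between genotypes and passed as lower with library totals alone too, at -0.90, -0.60 and -0.29. Stat5a rose by 0.26 (SE 0.09, edgeR adjusted p = 0.0353) with no overlap, but did not pass in DESeq2 (adjusted p = 0.0527) or when wild-type replicate 1 or 3 or transgenic replicate 3 was left out. Prlr, the prolactin receptor gene, had 54 counts in all and was not tested.

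Cish and Socs2, known target genes of STAT5, were described after their values had been seen. Cish was at 3.16, 4.33 and 4.47 CPM in transgenic muscle, against 57.8, 9.21 and 6.55 CPM in wild-type muscle. All transgenic libraries lay below all wild-type libraries, and wild-type replicate 1 was far above the other two. Cish did not pass, though it did in DESeq2 (adjusted p = 0.0149) and in edgeR without robust estimation (adjusted p = 0.0165), and its value rests on that library. Its log2 fold change was -2.60 (SE 1.10, edgeR adjusted p = 0.124), and without wild-type replicate 1 it was -0.998 (SE 0.20, edgeR adjusted p = 0.00299). Socs2 was at 8.78, 9.13 and 11.9 CPM in transgenic muscle, against 24.7, 11.2 and 13.5 CPM in wild-type muscle (edgeR adjusted p = 0.157, and 0.049 without robust estimation). Cish shares 479 exonic bases with Gm17041 and 261 with Gm17040, so its counts may hold theirs. The same wild-type library was thus the highest of the 6 for Igf1, Irs1, Cish and Socs2. It was also the highest for Igf1r, Igfbp4, Igfbp6, Igfbp7, Jak2 and Ghr. The summed adipocyte markers were highest there too, at 370 CPM. They were at 201 and 188 CPM in wild-type replicates 2 and 3 and 144 to 179 CPM in transgenic muscle. Fabp4 made up most of each sum, at 213, 177 and 170 CPM in wild-type replicates 1 to 3 and 124 to 138 CPM in transgenic muscle. Every adipocyte marker was highest in wild-type replicate 1, by unequal margins. Adipoq was at 23.2 CPM there, against 3.05 and 2.23 CPM in wild-type replicates 2 and 3 and 1.80 to 7.33 CPM in transgenic muscle. Adig was at 2.12 CPM there, against 2.07 and 1.87 CPM in wild-type replicates 2 and 3. The part of these markers and genes in the Igf1 and Irs1 values was not tested, beyond the values without that library given above.

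**Figure D4:**
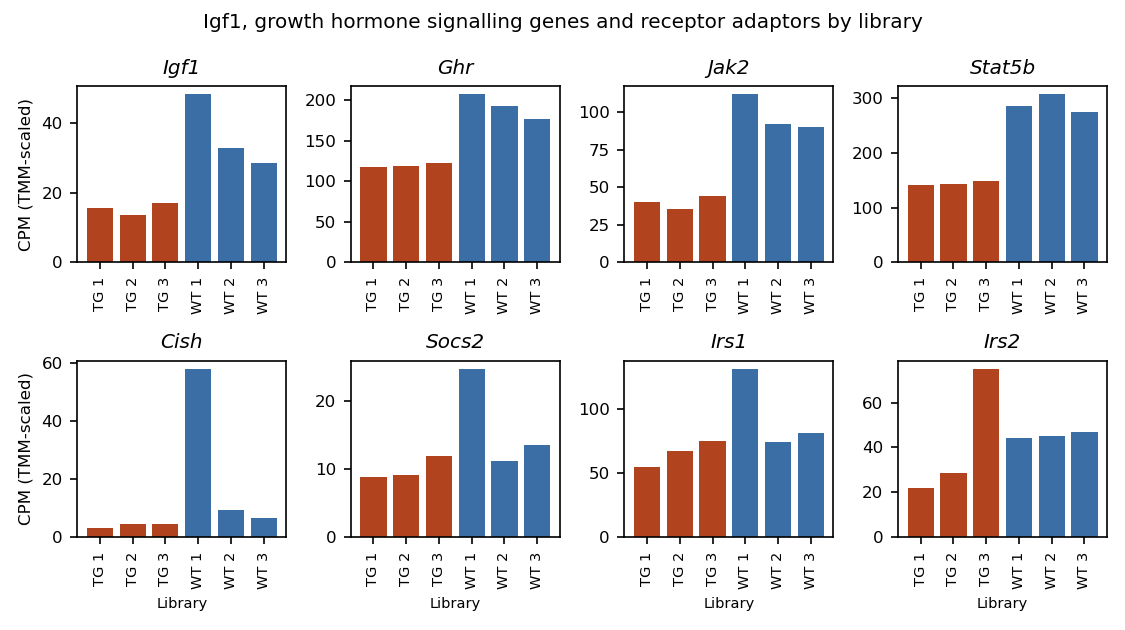
CPM (TMM-scaled, vertical axes from 0) of Igf1, growth hormone signalling genes, Irs1 and Irs2 in the transgenic (red) and wild-type (blue) libraries. Wild-type replicate 1 is the highest for Igf1, Ghr, Jak2, Cish, Socs2 and Irs1, and transgenic replicate 3 for Irs2.

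The genes whose pattern over the 6 libraries was most like that of Igf1 were found by the root mean square difference of log2 CPM, centred on each gene's mean, among 9718 genes with a mean of at least 5 CPM. Acss3 and Jak2 were nearest, each at 0.133, followed by Six2 at 0.163, and the next gene was at 0.167. Acss3, an acyl-CoA synthetase gene, was at 4.21, 3.36 and 4.53 CPM in transgenic muscle, against 10.5, 8.41 and 8.38 CPM in wild-type muscle. Six2, a homeobox transcription factor gene, was at 12.6, 13.2 and 16.7 CPM in transgenic muscle, against 37.9, 34.2 and 29.9 CPM in wild-type muscle. With 6 libraries in 2 genotypes such likeness mostly reads the shared difference between genotypes.

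Markers of muscle fibres were present in every library, and several marker lists differed between genotypes. The 10 skeletal muscle fibre markers summed to 78880 to 83460 CPM in transgenic libraries and 167200 to 179300 CPM in wild-type libraries, and 9 of them fell. Myh4, Myh2, Tnnt3, Tnni2, Mylpf and Actn3 of this list are genes of fast fibres, and Myh2 was the gene that did not pass. The list held no gene particular to slow fibres. Its other genes, Acta1, Ckm, Ttn and Des, fell too. The part of fibre type in this sum was not tested. Of the markers of other cells, 12 of 12 endothelial genes fell (median -0.36, summed 443 to 465 CPM in transgenic muscle and 563 to 600 CPM in wild-type muscle), as did 10 of 10 smooth muscle and pericyte genes (median -0.56), 4 of 12 fibroblast genes (median -0.18, summed 2177 to 2550 and 2594 to 3041 CPM) and 3 of 5 red blood cell genes. Des was in both the skeletal muscle fibre list and the smooth muscle and pericyte list, so its fall was counted in each. Its mean level was the highest of the smooth muscle and pericyte list (wild-type 3920, transgenic 2791 CPM). Which of these cells its counts came from was not tested. Under library totals 6 of the 10 skeletal muscle fibre genes were still lower (median -0.68). In that setting 1 endothelial gene, 4 smooth muscle and pericyte genes, 0 fibroblast genes and 0 red blood cell genes were lower. There 4 fibroblast genes were higher. Among 10 macrophage markers 1 rose and 0 fell (5 had a log2 fold change below 0), and 0 of 7 tendon and 0 of 6 Schwann cell markers passed in edgeR, also at an unadjusted p under 0.05. Of 8 adipocyte markers 2 fell (Fabp4 and Adig), and all 8 had a log2 fold change below 0 (median -1.34). The adipocyte markers that did not pass had SEs of 1.044 to 1.475, and wild-type replicate 1 was their highest library. Of 6 satellite cell markers 3 rose and 1 fell. Under library totals 0 adipocyte markers were lower or higher, and 6 satellite cell markers were higher and 0 lower. Igfbp3, Igfbp4 and Igfbp7 fell beside the vascular markers; the part of those cells in their values was not tested.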

How the data were processed

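RNA from frozen gastrocnemius muscle was sequenced from Illumina libraries, per the labels' protocols. Per the submitters' processing notes, the authors used STAR 2.5.0a for alignment, GRCm38.p6 as genome, featureCounts 2.0.0 for counting and DESeq2. Per the file headers, counting ignored strand and counted a fragment over several genes for each of them, so overlapping genes share fragments. Raw counts per gene were deposited. The authors' deposited table of log2 fold changes and p-values, both unadjusted and adjusted, lists 3614 genes, none with a log2 fold change nearer 0 than 0.585, among them 3 of the 10 genes (Igf1, Insr, Igfbp3).

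Gene IDs were named from GENCODE M21 (GRCm38), which matched 51718 of 51911. Counts were filtered with filterByExpr, scaled with TMM and tested with edgeR 4.0.16 in R 4.3.3 (robust quasi-likelihood F test, genotype as the sole term, Benjamini-Hochberg adjustment over all tested genes). The SE was derived from the log2 fold change and its F statistic, and intervals use the fit's degrees of freedom. The biological coefficient of variation was 10.7%, and 3 counts equal 0.0804 to 0.134 CPM. No 2 libraries of a genotype agreed within counting error (chi-square over its degrees of freedom, 10.8 to 26.1). Scripts were tested on simulated data in which few genes changed, about equally up and down. That differs from these data, so the test does not bear on the choice of scaling. Alternatives used library totals, upper-quartile factors, DESeq2 1.42.0, limma-voom 3.58.1, other filters, no robust estimation, a block for replicate number, and leaving out each library.

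The genes, the lists and the tests were chosen with earlier results of these data known. Named were all 10 genes, up to 4 genes per list past the threshold by smallest p, and the 3 genes most like Igf1. Igf2r, Pappa, Pik3ca, Pik3r1, Cish, Socs2 and the genes with too few counts to test were named after their values were seen. No p-value was adjusted over a list, and lists were described by counts and medians without a set test.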

Additional observations from a re-analysis of the deposited data

How the results depend on the processing

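Upper-quartile factors, DESeq2, limma-voom, other filters and a fit without robust estimation each left 6 of the 10 genes lower and 0 higher, apart from the fit without robust estimation, which also called Irs1 (-0.54, edgeR adjusted p = 0.0491). Under library totals 2 genes passed as lower and 1 as higher, and 8 and 17 of the other pathway genes. In that setting Igfbp3 (-0.204), Igfbp6 (-0.00914) and Igfbp7 (-0.103) lost their calls, Igfbp5 (0.461) gained one, and Igf1r (0.192), Irs2 (0.284), Igfbp4 (0.065), Ptpn1 (0.0963) and Inpp5k (0.0215) turned positive, while the median of all genes moved by 0.396. Correlations of deviations were 0.101, -0.0884 and -0.21 for same-numbered libraries and -0.191 to 0.246 for differently numbered ones. With 3 libraries a genotype this cannot show whether the replicate numbers pair the libraries. The fit with the replicate block called 7 genes lower, adding Igf1r (-0.203, edgeR adjusted p = 0.0438).

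Leaving out each library in turn gave 5 to 6 genes lower and 0 higher, and 18 to 22 lower and 8 to 10 higher among the other pathway genes. The log2 fold change ran from -0.258 to -0.126 for Igf1r, -0.703 to -0.249 for Irs1, -0.838 to 0.221 for Irs2, -0.0740 to 0.231 for Igfbp5 and -0.562 to -0.291 for Igfbp6, and the log2 difference in Irs2 over Irs1 from -0.247 to 0.404. Igf1 (-1.40 to -1.01), Insr (-0.659 to -0.621), Igfbp3 (-0.638 to -0.506), Igfbp4 (-0.376 to -0.261) and Igfbp7 (-0.569 to -0.458) passed without any 1 library. The fit without robust estimation also called Cish (-2.60, edgeR adjusted p = 0.0165) and Socs2 (-0.711, edgeR adjusted p = 0.0490). Dividing counts by exon length moved the log2 difference in the Igfbp5 share to 0.266, against 0.111 from the counts. With 3 libraries a genotype, the calls that were not made for Igf1r, Irs1, Irs2 and Igfbp5 do not show that these genes were at the same level.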
